A study of Mus musculus with 12 samples.

Results

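The genes examined are 31 genes typical of the cells of brain blood vessels, chosen by symbol as a list of 18 endothelial, 9 pericyte and 4 smooth muscle genes, among the 24480 genes of the count tables. The list was chosen with earlier results of these data known. All 31 were found in the tables, and all 31 passed the filter on low counts and were tested in both mutant lines. Expression was measured by RNA-seq in the dorsal lateral geniculate nucleus (dLGN), the visual relay of the thalamus, of mice at P0. Mutants made to lose the transcription factor SOX2 or NR2F1 in thalamic neurons were compared with controls of the same line, and the question is whether genes of the vessels in this tissue differed between them.

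There were 4 groups of 3 libraries. *Sox2* mutants were Sox2flox/flox;Ror-alphaCre, and their controls carried Sox2flox/flox or Sox2flox/+ without Cre. *Nr2f1* mutants were Nr2f1 flox/flox;Ror-alphaCre, and for their controls the label names that same genotype and then adds that Cre is missing, so that, following the methods of the study, they were taken as animals with the floxed allele and without Cre. A floxed allele is cut out by Cre recombinase, which is made here where *Rora* is active, in postmitotic neurons of the sensory thalamus, so that vessel cells are not the intended site of deletion. Each library was a pool of dLGNs dissected from 3 animals of 1 genotype, so the spread is a spread between pools. Libraries are named by line and by the column names of the tables, such as CTRL_1 or MUT_A, since these could not be matched to the replicate numbers of the samples. Total counts ranged from 39293465 to 50095344 per library.

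The targeted genes were examined first, as CPM, which are counts scaled to the same library size with TMM normalization factors. *Sox2* had 361, 363 and 382 CPM in its controls and 116, 150.4 and 152 CPM in its mutants (log2 fold change ± SE, -1.40 ± 0.10, FDR = 4.83e-05). *Nr2f1* had 311, 370.4 and 380.1 CPM in its controls and 105, 151 and 101 CPM in its mutants (log2 fold change -1.57 ± 0.14, FDR = 0.000348). The targeted gene was lower in every mutant library than in every control library of its line, as the labels say. *Rora*, whose locus carries Cre, had a log2 fold change of -1.96 ± 0.12, FDR = 2.07e-05 in *Sox2* mutants and -0.25 ± 0.11, FDR = 0.204 in *Nr2f1* mutants. Here FDR is the p-value of the edgeR quasi-likelihood F-test, adjusted by Benjamini-Hochberg over every gene tested in a line, and genes with FDR<0.01 are called DEG. The SE of a log2 fold change, given after ±, was computed as its absolute value divided by the square root of the F statistic. Values in parentheses after CPM are the log2 fold change with its SE and FDR, and of a pair of values without further words the first is that of the *Sox2* and the other that of the *Nr2f1* line. Of 15602 genes tested in the *Sox2* line 608 were upregulated (3.90%) and 653 downregulated (4.19%), and of 15600 in the *Nr2f1* line 190 (1.22%) and 206 (1.32%).

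Brain vessels are built by endothelial cells, which line the lumen and form the blood-brain barrier through tight junctions and selective transporters. Pericytes lie on the capillary wall and are recruited by PDGF-B from the endothelium, whereas contractile smooth muscle cells surround arterioles and arteries. During development vessels invade the brain from a plexus in the meninges and branch in it, under the control of VEGF, angiopoietins, Wnt ligands from neural cells, and Notch.

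The markers of the 3 cell types were present in all 12 libraries, with at least 24 counts of every gene in every library. Levels of the 31 genes were compared with each other only after division by transcript length. The unit is CPM per kb of the longest transcript with a RefSeq match, which was known for all 31. In other lists, the gene named as most abundant is that by CPM over the libraries together, not divided by length. It need not have the highest CPM in every library. In the *Sox2* controls the highest level per length was that of *Cldn5*, a claudin of endothelial tight junctions, at 69.3 ± 17.8 CPM per kb (SD, n = 3). It was followed by *Vtn* at 54.6 ± 20.7, *Rgs5* at 26.5 ± 6.79 and *Notch3* at 24.4 ± 1.44 CPM per kb. The same 4 genes led in the *Nr2f1* controls, where *Cldn5* had 59.3 ± 6.28 CPM per kb. All 4 smooth muscle genes ranked 25 or lower of 31 in the controls of both lines, with levels per length of *Acta2* at 2.48 ± 2.80 and of *Myh11* at 0.364 ± 0.248 CPM per kb in the *Sox2* controls. Smooth muscle genes were thus the scarcest list in both sets of controls, and the order of single genes was not tested.

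Libraries of the same group did not have the same level of vessel genes. Among the *Sox2* controls, CTRL_3 had the highest CPM of the group for 31 of 31 vessel genes. The 18 endothelial genes summed to 530.4, 584 and 823 CPM in CTRL_1, CTRL_2 and CTRL_3, the 9 pericyte genes to 489.8, 521 and 689.9 CPM, and the 4 smooth muscle genes to 6.51, 8.14 and 25.1 CPM. In the *Sox2* mutants MUT_1, MUT_3 and MUT_4 these sums were 731, 936 and 924 CPM for endothelial, 638, 825 and 741 CPM for pericyte and 34.4, 27.2 and 22.1 CPM for smooth muscle genes. CTRL_3 therefore lay above the lowest mutant library for endothelial, pericyte and smooth muscle sums alike. Among the *Nr2f1* mutants, MUT_B had the lowest CPM of its group for 27 of 31 genes. The endothelial sums were 510.2, 632 and 546 CPM in the *Nr2f1* controls CTRL_B, CTRL_D and CTRL_E and 781, 614 and 838 CPM in the mutants MUT_A, MUT_B and MUT_C. For pericyte genes the *Nr2f1* sums were 479, 533 and 549 CPM in controls and 636, 527 and 685 CPM in mutants, and for smooth muscle genes 6.18, 12.97 and 5.89 and 39.3, 13.2 and 30.6 CPM. MUT_B lay below the highest control for endothelial and pericyte sums, and slightly above it for smooth muscle. In bulk tissue, fewer or more cells of a type and less or more RNA per cell cannot be told apart.

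**Figure D1:**
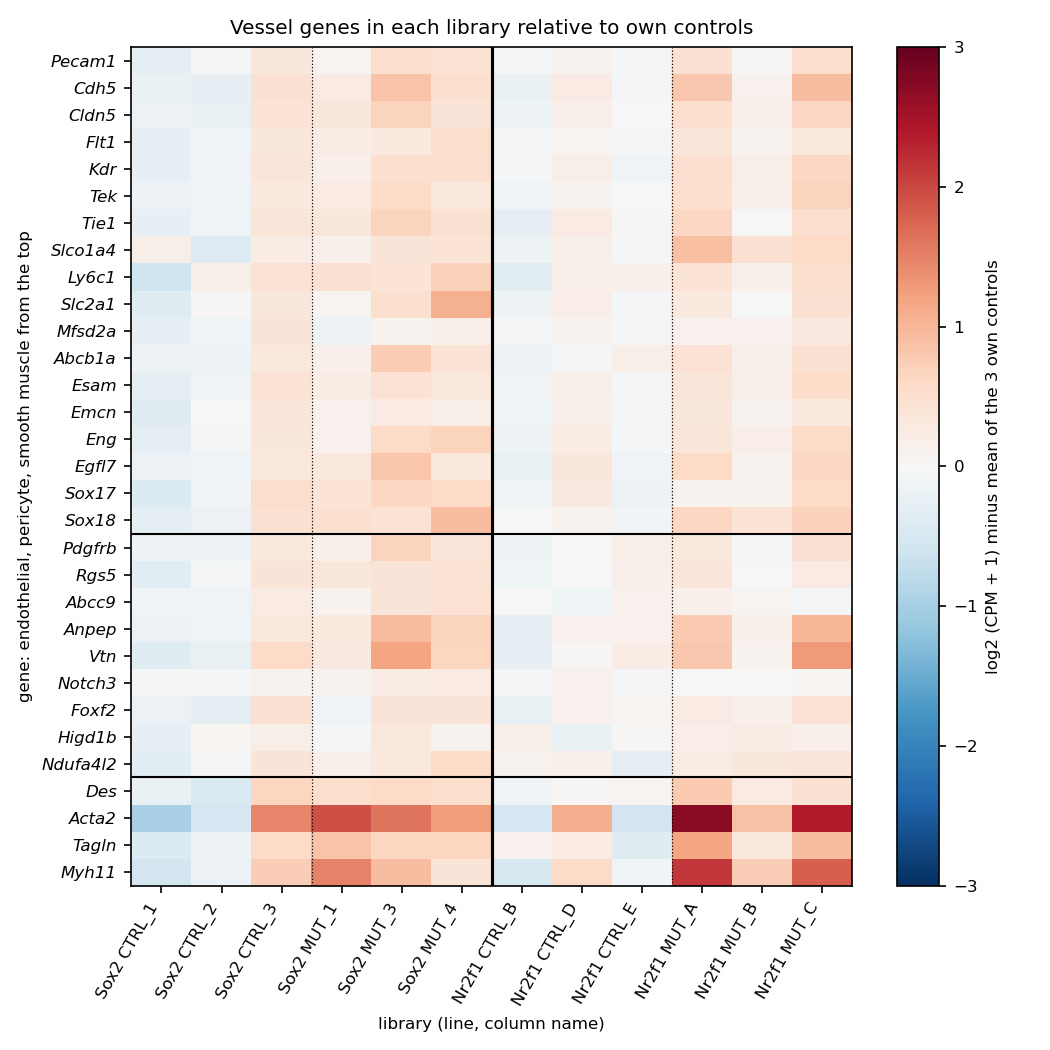
Each of the 31 vessel genes in each of the 12 libraries, as log2 (CPM + 1) minus the mean of the 3 controls of the same line, with endothelial, pericyte and smooth muscle genes separated by horizontal lines and groups by vertical lines. CTRL_3 of the *Sox2* controls is on the red side for all 31 genes, and MUT_B is the lowest *Nr2f1* mutant for 27 of them.

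Most of the genes moved together from library to library. After subtracting the mean of each of the 4 groups from log2 (CPM + 1), Pearson r over the 12 libraries had a median of 0.789 for the 153 pairs of endothelial genes, all of them positive. The median was 0.707 for 162 pairs of an endothelial and a pericyte gene, of which 161 were positive. It was 0.684 for 72 pairs of an endothelial and a smooth muscle gene, and 0.573 for 36 pairs of pericyte genes. The 6 pairs of smooth muscle genes had a median r of 0.792, and the 36 pairs of a pericyte and a smooth muscle gene one of 0.505, with 34 positive. These values are descriptions, given without a value for pairs of other genes, and all genes of a library share its dissection and its depth.

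Markers of other cells at the border of the brain had the same extreme libraries, although the order of the other libraries differed. The 19 genes of meningeal and perivascular fibroblasts summed to 1821, 1723 and 3224 CPM in CTRL_1, CTRL_2 and CTRL_3 of the *Sox2* line and to 2568, 5333 and 3233 CPM in MUT_1, MUT_3 and MUT_4. In the *Nr2f1* line they summed to 1275, 1808 and 1925 CPM in CTRL_B, CTRL_D and CTRL_E and to 3340, 1800 and 4042 CPM in MUT_A, MUT_B and MUT_C. The growth factor gene *Igf2* was the most abundant of them by CPM over the libraries together, not divided by length. CTRL_3 was again the highest control and MUT_B the lowest mutant. The 9 genes of border macrophages, which live in the meninges and around vessels, summed to 94.2, 81.9 and 141 CPM in the *Sox2* controls and 121, 225 and 173 CPM in the mutants. Their sums were 74.7, 95.6 and 87.4 CPM in the *Nr2f1* controls and 179.8, 94.3 and 190.4 CPM in the mutants, with the scavenger receptor gene *Stab1* the most abundant, and no fibroblast or macrophage gene of these lists was at 0 in any library. All 19 fibroblast genes had a positive log2 fold change in both lines, with a median of 0.70 in *Sox2* and 0.93 in *Nr2f1* mutants. In *Sox2* mutants *Crabp2*, which binds retinoic acid (1.35 ± 0.23, FDR = 0.00406) and *Ptgds*, a prostaglandin synthase of the meninges (0.95 ± 0.19, FDR = 0.00801) were upregulated, where 3.90% of all genes were. These calls held in 9 and 8 of 13 alternatives. In *Nr2f1* mutants 0 of 19 passed the test, where only 1.22% of all genes were upregulated. The medians of the tested border macrophage genes were 0.82 over 8 and 0.92 over 9 genes, and 0 of them passed the test in either line. *Vtn* is counted in the fibroblast list as well as among the pericyte genes. The part of these cells in the vessel values was not tested.

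For red blood cell genes, which would follow the blood left in vessels, CTRL_3 was again the highest *Sox2* control and MUT_B the lowest *Nr2f1* mutant. The 13 genes found in the tables summed to 359.7, 446 and 559.9 CPM in *Sox2* controls and 446, 586 and 388 CPM in mutants, and to 295, 383 and 405 and 413, 372 and 455 CPM in the *Nr2f1* line. *Hba-a1* was the most abundant of them, *Hbb-bh1* was at 0 in all 12 libraries, and *Hbb-y*, *Hemgn* and *Epb42* were at 0 in some. Medians of log2 fold changes were 0.11 and 0.18, and none of the 8 or 9 genes tested passed. Microglial genes also had their highest *Sox2* control in CTRL_3, but unlike for the vessel sums all 3 mutants lay well above it. The sums were 206, 210.5 and 233 CPM in controls and 410.4, 462 and 480 CPM in mutants. Of 14 genes 13 were upregulated, against 3.90% of all genes, and *Csf1r* was the most abundant in both lines. Among them were *Cx3cr1*, *Fcrls*, *P2ry12*, *Csf1r* and *C1qa*, with log2 fold changes of 1.08 to 1.45. Microglial genes of the *Nr2f1* line summed to 169, 178 and 187 CPM in controls and 233, 206 and 253 CPM in mutants, with MUT_B the lowest mutant. Of these 0 of 14 passed, where only 1.22% of all genes were upregulated.

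**Figure D2:**
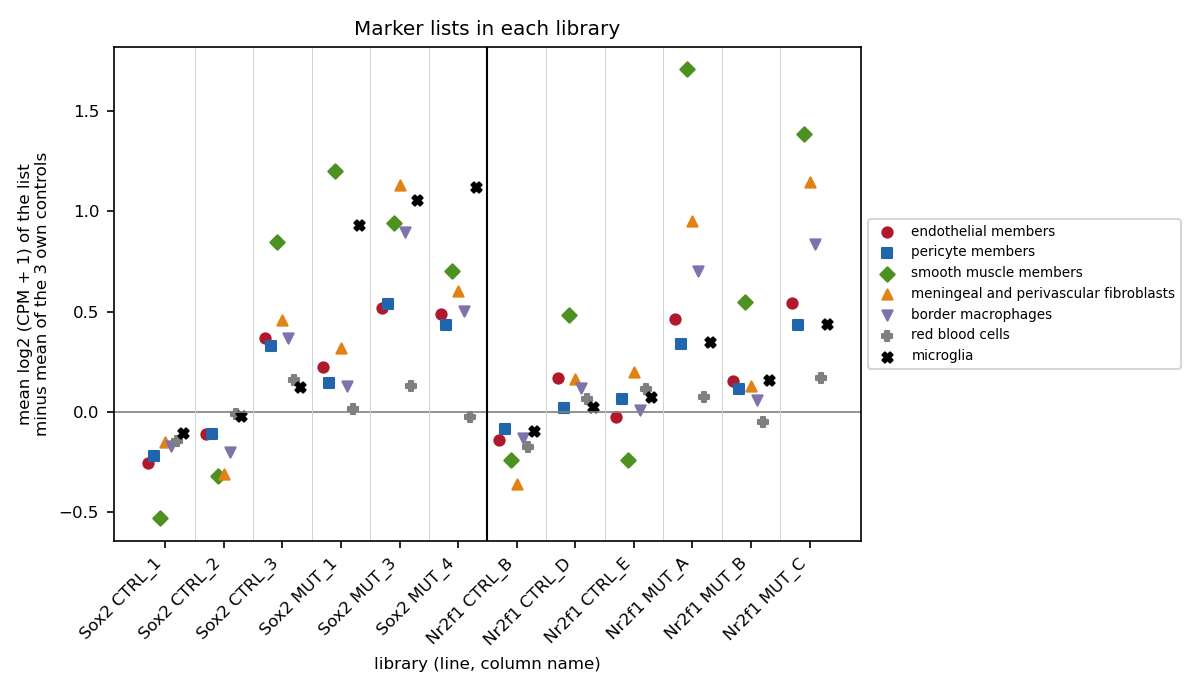
Mean log2 (CPM + 1) over the genes of 7 marker lists in each of the 12 libraries, minus the mean of the 3 controls of the same line. Vessel, fibroblast and border macrophage lists are high together in CTRL_3 of the *Sox2* line and lowest among the *Nr2f1* mutants in MUT_B, which still lies above the control mean for each of them, while microglial genes are high in all 3 *Sox2* mutants.

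Against this spread, most vessel genes did not pass the test in either line, although each of the 31 had a higher fitted mean in mutants. In *Sox2* mutants 0 of 31 were DEG by edgeR, where 3.90% of all genes tested were upregulated. At an unadjusted p below 0.05, 20 of 31 were higher, against 18.7% of all genes. DESeq2 called 1 of 31 (8.24% of all genes) and the likelihood ratio test of edgeR called 1 of 31 (8.32%), in both cases *Anpep*. With the number in the column name as a replicate block, which ties CTRL_1 to MUT_1 and CTRL_3 to MUT_3, 8 of 31 were upregulated (5.53% of all genes), namely *Cdh5*, *Cldn5*, *Egfl7*, *Tie1*, *Anpep*, *Vtn*, *Acta2* and *Myh11*. CTRL_2 and MUT_4 share their number with no other library, so the genotype effect of that fit rests on CTRL_1, MUT_1, CTRL_3 and MUT_3. That fit leaves 1 residual degree of freedom, and although controls were littermates of mutants by the methods of the study, whether the numbers mark pools of the same litters is not settled. In *Nr2f1* mutants 1 of 31, *Sox18*, was upregulated, against 1.22% of all genes, and 23 were higher at an unadjusted p below 0.05, against 13.5%. DESeq2 called 7 of 31 in this line (3.43% of all genes) and the likelihood ratio test 8 of 31 (3.77%). All mutant libraries lay above all controls for 2 of 31 genes in the *Sox2* line, where this held for 19.0% of all genes, and for 13 of 31 in the *Nr2f1* line, against 14.4%. Since most vessel genes moved together over the libraries, the counts in this paragraph are not of independent observations.

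The counts of called genes changed with single libraries. Without CTRL_3, 17 of 31 vessel genes were upregulated in *Sox2* mutants, namely 9 endothelial, 4 pericyte and all 4 smooth muscle genes, where 6.86% of all genes were. Without CTRL_1, CTRL_2, MUT_1, MUT_3 or MUT_4 instead, 0 of 31 passed, and fewer of all genes were upregulated as well (1.32%, 1.16%, 2.90%, 2.63% and 1.14%). Without MUT_B, 11 of 31 were upregulated in *Nr2f1* mutants, namely 6 endothelial, 2 pericyte and 3 smooth muscle genes, against 3.28% of all genes, and without CTRL_B, CTRL_D, CTRL_E, MUT_A or MUT_C 0 passed, so that the call of *Sox18* was lost, while the shares of all genes fell to 0.518%, 0.570%, 0.551%, 0.456% and 0.735%. Both libraries were singled out after their values were seen, and each lies towards the other group of its line, so leaving it out widens the difference.

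**Figure D3:**
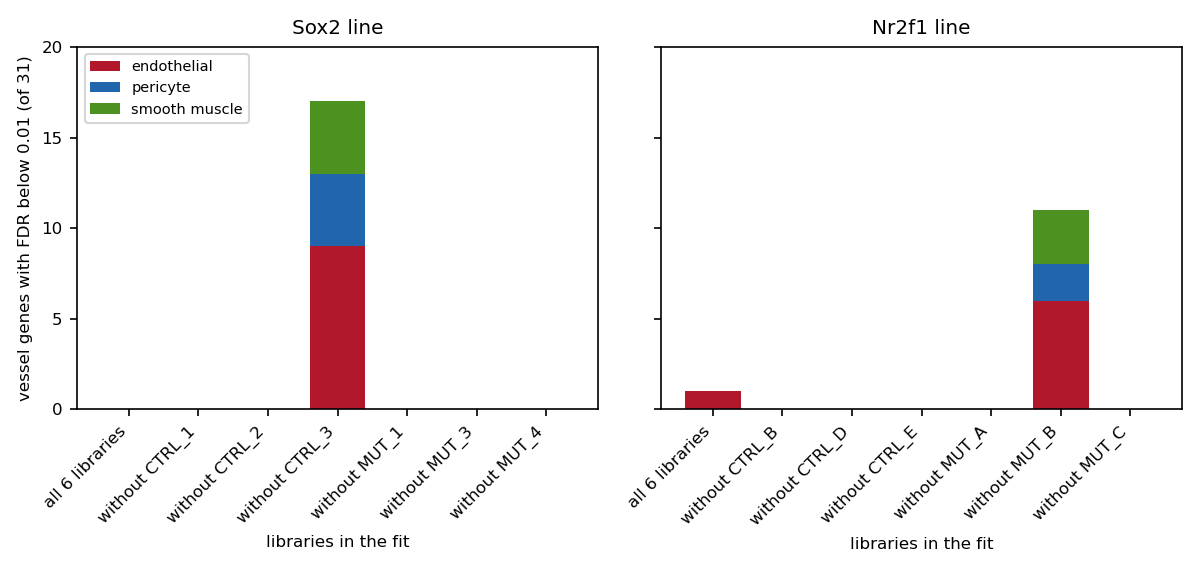
Number of the 31 vessel genes with FDR<0.01 (edgeR) with all 6 libraries of a line and with each library left out in turn, stacked by cell type. The *Sox2* line reaches 17 only without CTRL_3, and the *Nr2f1* line 11 only without MUT_B.

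By cell type, the median log2 fold change of the 18 endothelial genes was 0.46 in *Sox2* mutants (range 0.021 to 0.62) and 0.38 in *Nr2f1* mutants (0.18 to 1.22). For the 9 pericyte genes it was 0.36 (0.17 to 0.69) and 0.28 (0.0035 to 0.80), and for the 4 smooth muscle genes 0.98 (0.63 to 1.37) and 1.60 (0.72 to 2.29). Left-out libraries moved some of these medians by over 1.5 times. The pericyte median in the *Sox2* line was 0.59 without CTRL_3 and 0.21 without CTRL_1, that in the *Nr2f1* line 0.18 without CTRL_B, and the smooth muscle median in the *Sox2* line 1.57 without CTRL_3. Over all genes tested the median was 0.00050 in the *Sox2* and 0.014 in the *Nr2f1* line, and 50.1% and 53.1% of all genes had a positive value, against 31 of 31 vessel genes in each line. That count was also 31 of 31 in both lines with upper quartile normalization, and 31 and 30 with DESeq2, where *Notch3* was the exception. It was 29 of 31 in the *Sox2* line with the replicate block and without CTRL_1, and at least 30 in both lines without any other library. Most of the 31 genes moved together from library to library, so such counts are not counts of independent observations.

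**Figure D4:**
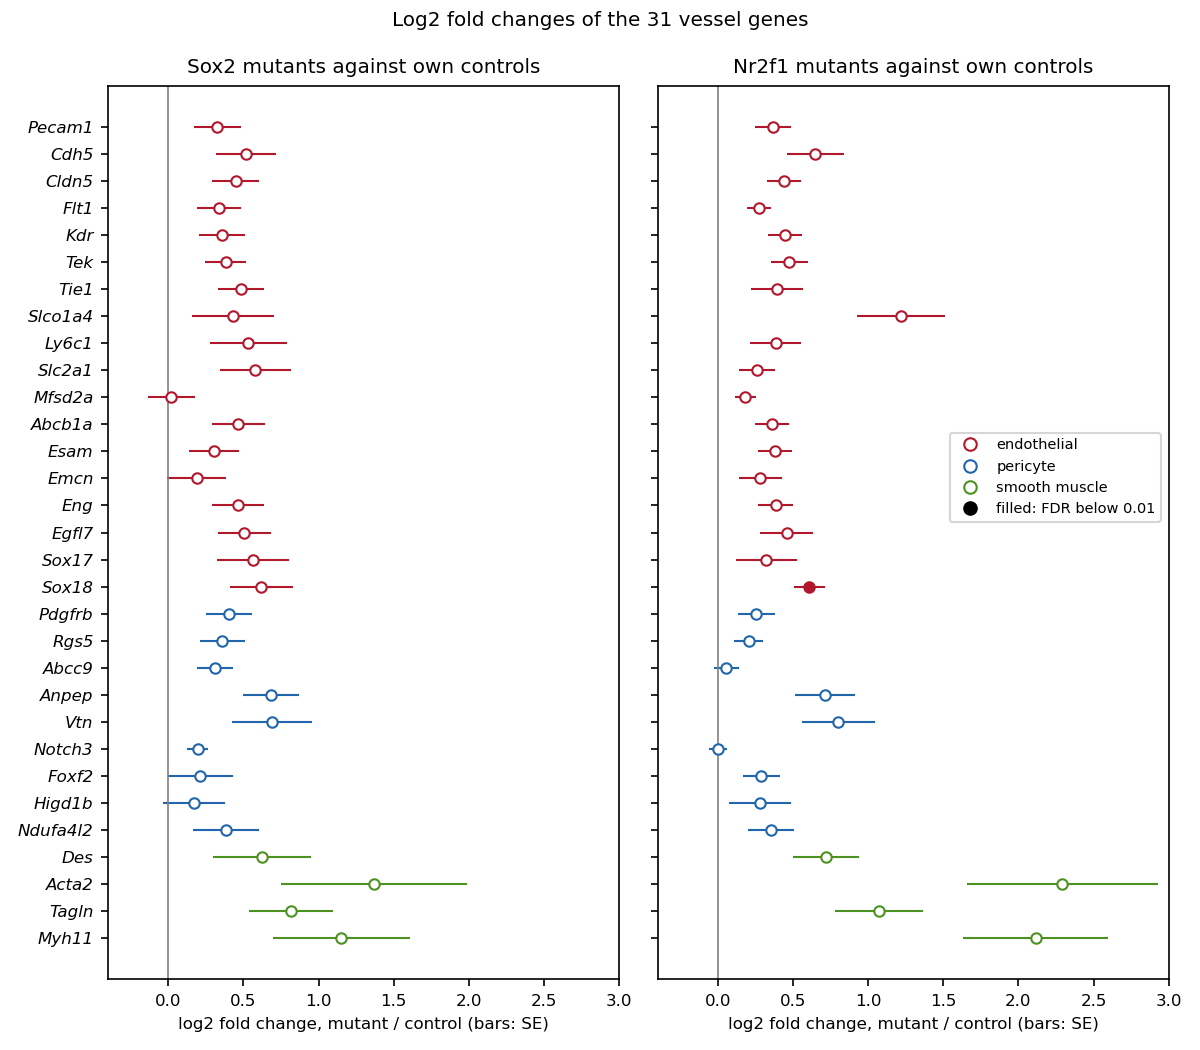
Log2 fold change of each vessel gene in *Sox2* (left) and *Nr2f1* mutants (right) against the controls of the line, with bars of 1 SE computed from the F statistic of edgeR, coloured by cell type and filled where FDR<0.01. All points lie above 0, only *Sox18* on the right is filled, and *Acta2* and *Myh11* lie farthest from 0 with the widest bars in the *Nr2f1* line.

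Among endothelial genes, those of cell junctions are described first. *Cdh5*, the cadherin of endothelial adherens junctions, had 47.8, 46.6 and 75.6 CPM in *Sox2* controls and 65.4, 100.4 and 77.2 CPM in mutants, a log2 fold change of 0.52 ± 0.20, FDR = 0.0961. With loss of *Nr2f1* the comparison was between 42.9, 59.2 and 47.99 CPM in controls and 87.1, 53.9 and 94.4 CPM in mutants, a log2 fold change of 0.65 ± 0.19, FDR = 0.0705. Groups overlapped in both lines, through the high CTRL_3 and the low MUT_B. *Cldn5*, needed for the tightness of the blood-brain barrier, had 84.8, 82.6 and 127 CPM in *Sox2* controls and 123, 153 and 126 CPM in mutants (0.45 ± 0.16, FDR = 0.0739). Its *Nr2f1* controls had 75.5, 93.3 and 83.1 CPM and the mutants 119, 93.7 and 129 CPM (0.44 ± 0.11, FDR = 0.0484), with all mutants above all controls, MUT_B by the least. *Pecam1* and *Esam*, adhesion molecules of endothelial contacts, had log2 fold changes of 0.33 ± 0.16 and 0.30 ± 0.17 in *Sox2* and 0.37 ± 0.12 and 0.38 ± 0.11 in *Nr2f1* mutants, with FDR between 0.0736 and 0.229. Without CTRL_3, *Cdh5*, *Cldn5* and *Esam* passed the test in the *Sox2* line, and without MUT_B *Cdh5*, *Cldn5* and *Pecam1* passed in the *Nr2f1* line.

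The receptors through which VEGF and angiopoietins act on endothelial cells are described next. *Kdr*, the main signalling receptor for VEGF, had 70.2, 77.04 and 108 CPM in *Sox2* controls and 92.8, 116 and 119 CPM in mutants (0.36 ± 0.15, FDR = 0.128). It had 67.1, 78.9 and 63.5 CPM in *Nr2f1* controls and 98.7, 79.2 and 108 CPM in mutants (0.45 ± 0.11, FDR = 0.046), and the highest control and the lowest mutant were nearly level. *Tek*, the receptor of angiopoietins, had 23.2, 23.9 and 31.9 CPM in *Sox2* controls and 30.9, 39.02 and 32.8 CPM in mutants (0.38 ± 0.13, FDR = 0.0747), and 21.6, 25.2 and 23.5 and 33.7, 26.3 and 37.7 CPM in the *Nr2f1* line (0.47 ± 0.12, FDR = 0.0489). Its relative *Tie1* had log2 fold changes of 0.48 ± 0.15, FDR = 0.0537 and 0.39 ± 0.17, FDR = 0.193. *Flt1*, which binds VEGF and limits its action, had 0.34 ± 0.14, FDR = 0.128 and 0.27 ± 0.082, FDR = 0.0748. *Eng*, a co-receptor for ligands of the TGF-beta family, had 0.46 ± 0.17, FDR = 0.0859 and 0.39 ± 0.12, FDR = 0.0774. For *Kdr*, *Tek* and *Flt1*, all *Nr2f1* mutants lay above all controls, whereas in the *Sox2* line CTRL_3 overlapped with the mutants for each of the 5 receptors. Without CTRL_3 *Flt1*, *Kdr*, *Tek* and *Tie1* passed in the *Sox2* line, and without MUT_B *Kdr* and *Tek* passed in the *Nr2f1* line.

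The promoters of *Flt1*, *Kdr*, *Tek* and *Tie1* are shown with the one of the smooth muscle gene *Acta2*, from RefSeq in GRCm38.p6, as windows of 300 bases. These receptors moved together over the libraries, with r of 0.73 to 0.92. *Acta2* moved with them too, with r of 0.76, 0.79, 0.78 and 0.85 in the order given. Motifs were searched on both strands, and capitals mark AACAAT or ACAAAG (letters bound by SOX factors), GGAAGT or AGGAAG (ETS factors, which can overlap by 5 letters), TGTTTAC (forkhead factors), the CArG box of SRF (CC, 6 letters A or T, GG) and TGGGAA (RBPJ), or their reverse complements. The windows are chr5:147725962-147726261 (minus strand), chr5:75978406-75978705 (minus), chr4:94739039-94739338 (plus), chr4:118489800-118490099 (minus) and chr19:34255324-34255623 (minus). Against the outer ends of the genes in the annotation, the windows of *Flt1* and *Kdr* lie inside the gene, those of *Tek* and *Acta2* mostly inside it, and that of *Tie1* mostly before it.
Flt1: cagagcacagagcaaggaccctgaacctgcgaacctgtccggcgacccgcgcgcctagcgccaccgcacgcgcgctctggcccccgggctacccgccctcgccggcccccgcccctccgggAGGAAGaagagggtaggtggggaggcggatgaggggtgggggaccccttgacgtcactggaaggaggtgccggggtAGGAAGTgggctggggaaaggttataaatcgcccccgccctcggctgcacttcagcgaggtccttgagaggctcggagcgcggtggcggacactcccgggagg
Kdr: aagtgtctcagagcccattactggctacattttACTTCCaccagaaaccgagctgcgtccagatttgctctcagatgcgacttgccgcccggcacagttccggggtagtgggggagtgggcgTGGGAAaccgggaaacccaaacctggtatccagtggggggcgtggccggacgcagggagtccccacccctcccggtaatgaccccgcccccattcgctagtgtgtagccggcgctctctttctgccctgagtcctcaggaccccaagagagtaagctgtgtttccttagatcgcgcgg
Tek: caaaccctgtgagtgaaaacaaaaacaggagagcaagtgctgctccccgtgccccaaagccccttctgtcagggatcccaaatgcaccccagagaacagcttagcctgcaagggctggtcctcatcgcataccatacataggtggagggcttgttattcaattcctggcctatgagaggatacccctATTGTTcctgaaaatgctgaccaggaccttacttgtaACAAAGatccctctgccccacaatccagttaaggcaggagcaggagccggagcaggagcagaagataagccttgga
Tie1: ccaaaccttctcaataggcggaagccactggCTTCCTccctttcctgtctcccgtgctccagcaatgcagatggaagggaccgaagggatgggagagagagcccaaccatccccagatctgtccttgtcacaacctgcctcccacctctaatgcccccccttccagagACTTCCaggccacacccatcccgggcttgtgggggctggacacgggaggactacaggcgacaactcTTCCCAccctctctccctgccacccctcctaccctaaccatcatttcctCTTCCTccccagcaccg
Acta2: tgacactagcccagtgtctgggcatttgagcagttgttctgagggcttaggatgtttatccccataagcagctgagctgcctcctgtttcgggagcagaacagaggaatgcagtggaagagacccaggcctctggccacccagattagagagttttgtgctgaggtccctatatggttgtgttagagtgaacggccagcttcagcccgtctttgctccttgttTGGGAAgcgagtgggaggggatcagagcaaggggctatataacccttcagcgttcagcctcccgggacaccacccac

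The table of promoters held 21 of the 31 genes, 13 endothelial, 6 pericyte and 2 smooth muscle ones, in 24 windows of 300 bases. *Pecam1*, *Cdh5*, *Esam*, *Sox17*, *Sox18*, *Pdgfrb*, *Higd1b*, *Ndufa4l2*, *Tagln* and *Myh11* were not matched. Of the 16 endothelial windows 7 held GGAAGT (43.8%), which 23.8% of all 32851 promoters of this length held, and 9 held AGGAAG (56.2% against 35.4%). AACAAT was in 3 of the 16 (18.8% against 10.7%) and ACAAAG in 5 (31.2% against 18.7%). Of the 6 pericyte windows 2 held GGAAGT, 1 held AGGAAG, and 0 held AACAAT or ACAAAG. Over all 24 windows TGGGAA was in 6 (25.0% against 25.6%), TGTTTAC in 1 (4.17% against 3.65%) and the exact CArG box in 0, against 1.63% of all promoters. The window of *Acta2* holds ccctatatgg and ccttgtttgg, each 1 letter from that pattern, and such near matches were not counted. Of the 5 receptors, *Flt1*, *Kdr*, *Tie1* and *Eng* have GGAAGT, *Eng* and *Tek* have ACAAAG, and *Tek* has AACAAT. A match describes these letters and no bound site, and the windows were not matched for base composition.

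Transporters of the blood-brain barrier varied more among themselves. *Slc2a1*, the glucose transporter of the barrier, had 52.8, 70.2 and 86.2 CPM in *Sox2* controls and 72.2, 95.7 and 145 CPM in mutants (0.58 ± 0.24, FDR = 0.115), where MUT_4 stood apart. Its log2 fold change in the *Nr2f1* line was 0.26 ± 0.12, FDR = 0.215. *Mfsd2a*, which carries lipids into the brain and restrains vesicle transport, had the lowest log2 fold change of the 31 genes in the *Sox2* line, 0.021 ± 0.16, FDR = 0.94. Its *Sox2* controls had 36.5, 39.5 and 56.8 CPM and the mutants 38.8, 47.2 and 48.7 CPM, with CTRL_3 above all mutants, and the sign turned negative without CTRL_1, CTRL_2, MUT_3 or MUT_4. In *Nr2f1* mutants *Mfsd2a* had 39.4, 39.6 and 43.2 CPM, against 34.4, 38.7 and 34.5 CPM in controls (0.18 ± 0.071, FDR = 0.154). *Abcb1a*, a pump that returns drugs to the blood, had 0.47 ± 0.18, FDR = 0.0936 and 0.36 ± 0.12, FDR = 0.0898. *Slco1a4*, an organic anion transporter, was the scarcest endothelial gene per length, with 0.571, 0.978 and 0.696 CPM in *Nr2f1* controls and 2.26, 1.39 and 1.64 CPM in mutants (1.22 ± 0.29, FDR = 0.0367). All 3 mutants were above all controls there, whereas the *Sox2* controls (2.22, 1.16 and 2.32 CPM) and mutants (2.17, 2.75 and 2.77 CPM) overlapped (0.43 ± 0.27, FDR = 0.29). *Slco1a4* passed in the *Nr2f1* line when DESeq2 or the likelihood ratio test was used.

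*Sox17* and *Sox18* encode SOX factors of the group that endothelial cells use, with *Sox17* more typical of arteries. *Sox18* (GRCm38.p6, chr2:181669837-181671640) had 11.9, 12.99 and 11.4 CPM in *Nr2f1* controls and 19.1, 16.3 and 19.9 CPM in mutants, and was upregulated with a log2 fold change of 0.61 ± 0.10, FDR = 0.00759. All 3 mutants were above all 3 controls, but the call was lost, with FDR of up to 0.0776 over the 12 alternatives, in one fit over the 12 libraries and when any library other than MUT_B was left out. In the *Sox2* line *Sox18* had 11.9, 13.1 and 20.8 CPM in controls and 21.02, 20.2 and 28.9 CPM in mutants, a log2 fold change of similar size with a wider error (0.62 ± 0.21, FDR = 0.0677), and CTRL_3 lay among the mutants. The test of the difference between the lines gave 0.015 ± 0.27, FDR = 0.99 for it. *Sox17* had 3.75, 4.88 and 8.05 CPM in *Sox2* controls and 7.403, 8.72 and 8.45 CPM in mutants (0.56 ± 0.24, FDR = 0.128), and 0.32 ± 0.20, FDR = 0.363 in the *Nr2f1* line. Both passed in the *Sox2* line without CTRL_3.

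The remaining endothelial genes were *Egfl7*, which encodes a protein that endothelial cells secrete, *Emcn*, a sialomucin of veins and capillaries, and *Ly6c1*, a surface protein. *Egfl7* had log2 fold changes of 0.51 ± 0.18, FDR = 0.0729 and 0.46 ± 0.18, FDR = 0.148, *Emcn* of 0.19 ± 0.20, FDR = 0.533 and 0.28 ± 0.14, FDR = 0.255, and *Ly6c1* of 0.53 ± 0.26, FDR = 0.171 and 0.38 ± 0.17, FDR = 0.193, each in *Sox2* and then *Nr2f1* mutants. *Emcn* had the smallest of these in both lines, and all 3 overlapped between groups in both lines. *Ly6c1*, *Abcb1a* and *Slco1a4* have close relatives in the genome, as has the smooth muscle gene *Acta2*, so their counts are less certain. The same holds where genes overlap, as *Egfl7* and *Eng* do with genes of microRNAs, *Eng* also with *Fpgs*, *Abcb1a* with *Rundc3b*, *Higd1b* with *Eftud2*, *Ndufa4l2* with *Shmt2* and *Tagln* with *Pcsk7*, while further genes overlap only with genes under provisional names.

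Of the 9 pericyte genes, 4 are given first, those that passed in the *Sox2* line without CTRL_3. *Pdgfrb*, the receptor that PDGF-B from the endothelium acts on, had 66.9, 66.6 and 92.5 CPM in *Sox2* controls and 83.4, 119 and 96.4 CPM in mutants (0.40 ± 0.15, FDR = 0.0909). In the *Nr2f1* line it had 60.7, 66.8 and 76.8 and 84.9, 66.2 and 92.8 CPM (0.26 ± 0.12, FDR = 0.233), with MUT_B among the controls. *Anpep*, an aminopeptidase of the pericyte surface, had 11.8, 12.1 and 16.8 CPM in *Sox2* controls and 16.5, 26.9 and 21.9 CPM in mutants. Its log2 fold change of 0.68 ± 0.19, FDR = 0.032 had the smallest FDR of the 31 genes in the *Sox2* line, and CTRL_3 exceeded MUT_1 by little. In *Nr2f1* mutants *Anpep* had 22.6, 14.4 and 26.3 CPM, all above the controls at 10.5, 14.03 and 14 CPM (0.71 ± 0.20, FDR = 0.0643). *Vtn*, which encodes the matrix protein vitronectin, varied most from pool to pool among pericyte genes of mutants, with 71.1, 77.9 and 137 CPM in *Sox2* controls, 109.6, 208 and 143 CPM in mutants (0.69 ± 0.27, FDR = 0.0979), and in the *Nr2f1* line 54.5, 66.1 and 75.3 and 113, 69.2 and 159 CPM (0.80 ± 0.24, FDR = 0.0792). *Rgs5*, a regulator of G protein signalling, had 0.36 ± 0.15, FDR = 0.113 and 0.21 ± 0.10, FDR = 0.226. Without CTRL_3 these 4 genes were the pericyte genes that passed in the *Sox2* line, and without MUT_B *Anpep* and *Vtn* passed in the *Nr2f1* line.

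*Notch3*, a Notch receptor of mural cells that is also made by progenitors of the developing brain, was the steadiest of the 31 in the controls of the *Sox2* line, with a coefficient of variation of 5.88%. It had 187, 191 and 209 CPM in *Sox2* controls and 212, 229 and 232 CPM in mutants, with all mutants above all controls (0.20 ± 0.071, FDR = 0.0798). *Notch3* in the *Nr2f1* line had 179, 205 and 180.2 CPM in controls and 186, 185 and 195 CPM in mutants, a log2 fold change of 0.0035 ± 0.060, FDR = 0.979 whose sign turned negative with DESeq2 and without CTRL_B, CTRL_E or MUT_C. *Abcc9*, a subunit of a potassium channel of pericytes that senses ATP, had 0.31 ± 0.12, FDR = 0.0966 in *Sox2* mutants and 0.057 ± 0.083, FDR = 0.729 in *Nr2f1* mutants. *Foxf2*, a forkhead factor of brain pericytes, had 0.21 ± 0.21, FDR = 0.512 and 0.29 ± 0.12, FDR = 0.181. *Higd1b* and *Ndufa4l2*, which encode small mitochondrial proteins, had 0.17 ± 0.21, FDR = 0.595 and 0.38 ± 0.22, FDR = 0.242 in *Sox2* mutants and 0.28 ± 0.21, FDR = 0.455 and 0.35 ± 0.16, FDR = 0.198 in *Nr2f1* mutants. None of these 5 passed in either line, also without CTRL_3 or MUT_B.

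Smooth muscle genes had the highest median log2 fold change of the 3 cell types and also the widest spread between control pools. *Acta2*, the actin of smooth muscle, had 1.31, 2.20 and 11.6 CPM in *Sox2* controls and 16.4, 12.7 and 9.74 CPM in mutants (1.37 ± 0.62, FDR = 0.147). CTRL_3 had over 5 times the level of the other controls and lay above MUT_4. *Acta2* in the *Nr2f1* line had 1.19, 5.58 and 1.09 CPM in controls and 19.4, 4.72 and 15.1 CPM in mutants (2.29 ± 0.63, FDR = 0.0596), and CTRL_D exceeded MUT_B. *Myh11*, the heavy chain of smooth muscle myosin, had 1.13, 1.80 and 4.22 CPM in *Sox2* controls, 7.79, 4.97 and 3.10 CPM in mutants (1.15 ± 0.46, FDR = 0.103), 0.690, 2.52 and 1.22 CPM in *Nr2f1* controls and 9.36, 2.95 and 7.23 CPM in mutants (2.12 ± 0.48, FDR = 0.0297). The *Nr2f1* groups did not overlap for it, although MUT_B was close to CTRL_D. *Tagln*, an actin-binding protein, was the smooth muscle gene whose groups did not overlap in either line, with 2.04, 2.60 and 4.89 against 6.21, 5.26 and 5.29 CPM in the *Sox2* line (0.82 ± 0.28, FDR = 0.0688) and 2.66, 2.97 and 1.61 against 6.68, 3.21 and 5.42 CPM in the *Nr2f1* line (1.07 ± 0.29, FDR = 0.0585). *Des*, the intermediate filament protein desmin that pericytes make too, had 0.63 ± 0.33, FDR = 0.203 and 0.72 ± 0.22, FDR = 0.0811. Coefficients of variation of the 4 genes had a median of 62.7% in *Sox2* controls and 46.8% in *Nr2f1* controls, against 24.4% and 12.6% for endothelial genes. All 4 passed in the *Sox2* line without CTRL_3, and *Acta2*, *Myh11* and *Tagln* passed in the *Nr2f1* line without MUT_B.

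**Figure D5:**
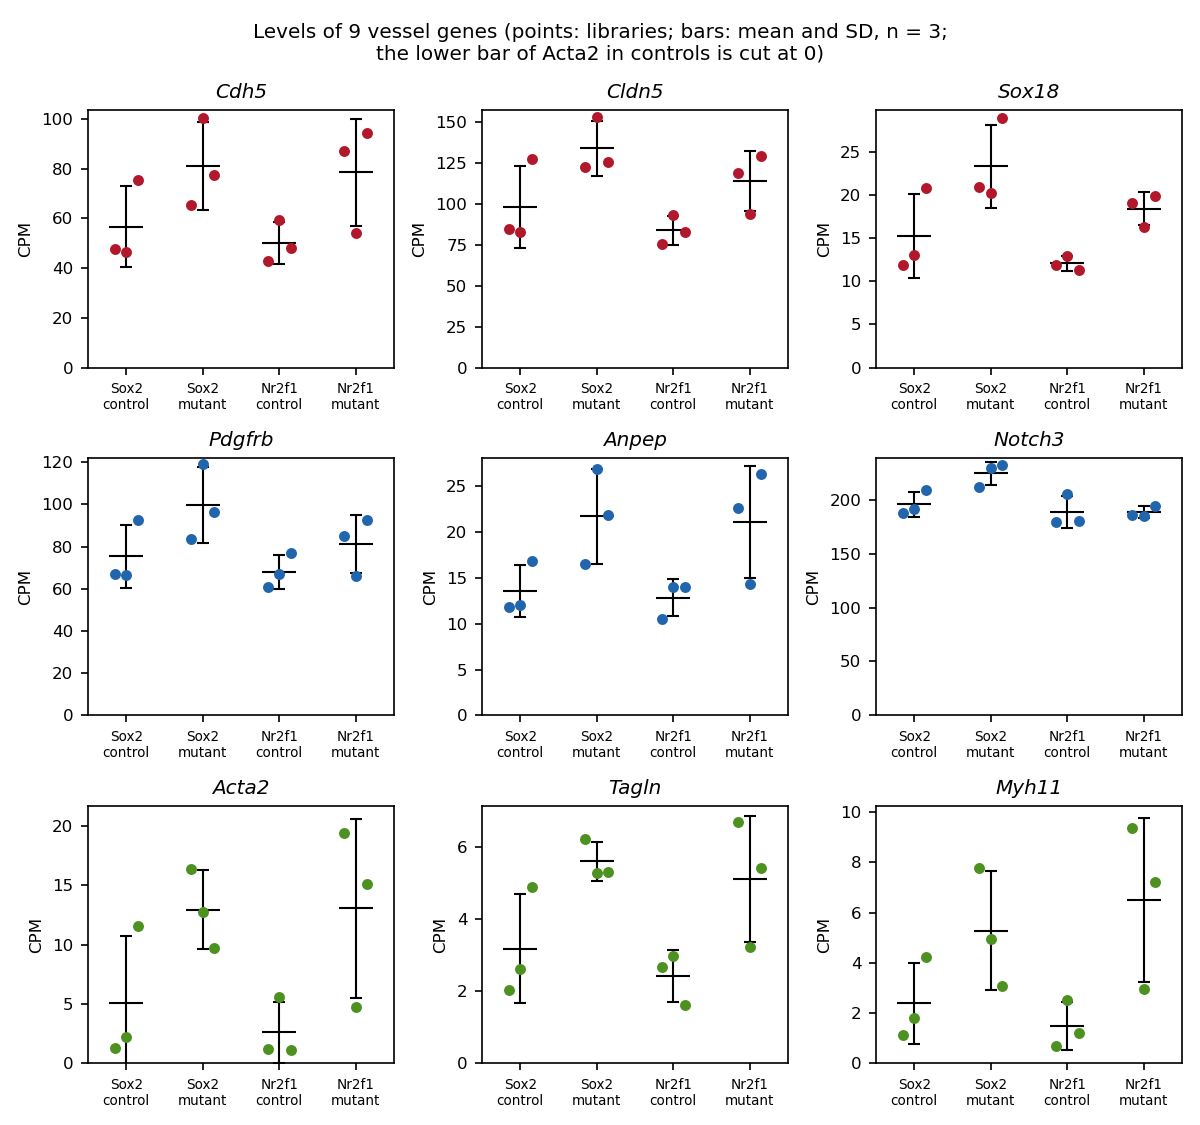
CPM of 9 vessel genes in the libraries of the 4 groups, with points for libraries and bars for mean and SD (n = 3), in red for endothelial, blue for pericyte and green for smooth muscle genes. One *Sox2* control, CTRL_3, lies among the mutants for 7 of the 9 genes, all but *Notch3* and *Tagln*, and *Notch3* is nearly level between groups in the *Nr2f1* line.

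The difference between the lines was examined with an interaction term for line by genotype, fitted to all 12 libraries. By edgeR 0 of 31 vessel genes differed, where 1.44% of 15989 genes did. At an unadjusted p below 0.05 the count was 0 as well, against 16.2% of all genes, and it was 0 by DESeq2 (3.36% of all genes) and by the likelihood ratio test (3.10%). Differences in log2 fold change, *Sox2* minus *Nr2f1*, ranged from -0.96 ± 0.77 for *Myh11* to 0.32 ± 0.31 for *Slc2a1*, and 15 of 31 were positive. That count turned on single libraries, with 29 without CTRL_3, 7 without CTRL_1 and 23 without MUT_C, and the median of the smooth muscle genes was -0.59 with all libraries and 0.34 without CTRL_3, with 0 of 31 passing in each case. The widest errors were those of smooth muscle genes, with a difference of -0.93 ± 1.04 for *Acta2*.

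Ligands and co-receptors that act on these vessels were taken from a list of 24 genes, of which 22 were tested in each line. In *Sox2* mutants 3 were upregulated, where 3.90% of all genes were, namely *Nrp2* (0.65 ± 0.075, FDR = 0.000462), *Nrp1* (0.56 ± 0.076, FDR = 0.00107) and *Angpt1* (0.92 ± 0.14, FDR = 0.00218). In *Nr2f1* mutants 2 were upregulated, against 1.22% of all genes, namely *Nrp1* (0.76 ± 0.080, FDR = 0.000673) and *Angpt2* (1.07 ± 0.13, FDR = 0.00156). Neuropilins are co-receptors for VEGF on endothelial cells and for semaphorins on axons, and the angiopoietins are ligands of the receptor encoded by *Tek*. *Angpt2*, which loosens the contacts of endothelium and pericytes and is made at the tips of growing vessels, had 17.3, 17.1 and 13.98 CPM in *Nr2f1* controls and 40.6, 30.4 and 30.5 CPM in mutants. In the *Sox2* line it had 17.5, 16.4 and 18.3 CPM in controls and 8.69, 13.7 and 13.8 CPM in mutants, all below the controls (-0.53 ± 0.16, FDR = 0.0497, above the threshold). The difference between the lines was -1.59 ± 0.23, FDR = 0.00142, and it passed in all 18 alternatives, as did the call in *Nr2f1* mutants in all 12. CTRL_3 was the highest control and MUT_B the lowest mutant for *Angpt2* too, but neither overlapped with the other group of its line. By CPM over the libraries together, not divided by length, *Cxcl12* was the most abundant gene of the list, though not necessarily in each library. The median log2 fold change of the list was 0.42 in *Sox2* and 0.42 in *Nr2f1* mutants.

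Wnt ligands from neural cells and Norrin induce the barrier in endothelial cells, and 18 genes of that pathway were tested. In *Sox2* mutants the ligands *Wnt7b* (0.55 ± 0.091, FDR = 0.00326) and *Wnt7a* (0.61 ± 0.10, FDR = 0.00415) were upregulated, where 3.90% of all genes were. *Lef1*, a transcription factor of the pathway that thalamic neurons also make, was downregulated (-0.91 ± 0.087, FDR = 0.000191), where 4.19% of all genes were. In *Nr2f1* mutants the inhibitor *Nkd1* (-0.57 ± 0.066, FDR = 0.00123) and *Lef1* (-0.70 ± 0.12, FDR = 0.00853) were downregulated, against 1.32% of all genes. Of 19 genes for the recruitment of pericytes, *Itgb8* (0.52 ± 0.095, FDR = 0.00519) and *S1pr1* (0.58 ± 0.11, FDR = 0.00592) were upregulated in *Sox2* mutants, against 3.90% of all genes. *Pdgfa*, another PDGF ligand (-0.68 ± 0.084, FDR = 0.000649), was downregulated in them, against 4.19%, and 0 passed in *Nr2f1* mutants. The integrin subunit of *Itgb8* helps to release TGF-beta, and *S1pr1* encodes a receptor for sphingosine phosphate. Of 14 other Notch pathway genes, the target gene *Hey1* (0.70 ± 0.13, FDR = 0.00581) and the receptor gene *Notch1* (0.47 ± 0.089, FDR = 0.00614) were upregulated in *Sox2* mutants, again against 3.90% of all genes, and 0 passed in *Nr2f1* mutants, where 1.22% of all genes were upregulated. Several of these genes are active in neural cells too, and bulk RNA does not show which cells the reads came from.

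Further vessel genes are set against all genes tested, of which 3.90% were upregulated and 4.19% downregulated in *Sox2* mutants, and 1.22% and 1.32% in *Nr2f1* mutants. Of 23 endothelial transcription factors *Nr2f2*, typical of veins and related to *Nr2f1*, was upregulated in *Sox2* mutants (0.68 ± 0.076, FDR = 0.000433), and 0 passed in *Nr2f1* mutants, while 22 of 23 had positive values in each line. Of the other endothelial surface and barrier genes, 3 of 47 were upregulated in *Sox2* mutants, *Vwf*, which encodes von Willebrand factor (1.20 ± 0.19, FDR = 0.00265), the surface protein gene *Ly6e* (0.34 ± 0.065, FDR = 0.00674) and the transporter gene *Slco2b1* (0.71 ± 0.14, FDR = 0.00778). The transcription factor gene *Sox4*, also active in young neurons (-0.86 ± 0.12, FDR = 0.00145), was downregulated. In *Nr2f1* mutants 1 of 48, the junction gene *Jam2*, was downregulated (-0.41 ± 0.059, FDR = 0.00378). Of 14 arterial, venous and tip cell genes tested, *Ednrb*, an endothelin receptor gene that astrocytes share, was upregulated in *Sox2* mutants (0.58 ± 0.072, FDR = 0.000676) and 0 passed in *Nr2f1* mutants. Among other pericyte and smooth muscle genes, the laminin receptor gene *Itga7* (0.83 ± 0.071, FDR = 0.000108) and the G protein regulator *Rgs4* (0.74 ± 0.082, FDR = 0.000393) were upregulated of 37 tested in *Sox2* mutants, and *Zic1*, a zinc finger factor, was downregulated of 38 in *Nr2f1* mutants (-0.49 ± 0.082, FDR = 0.00737). *Rgs4*, which neurons make as well, had 38.8, 42.4 and 42.2 CPM in *Sox2* controls and 64.5, 65.6 and 75.6 CPM in mutants, and the difference between the lines was 0.83 ± 0.12, FDR = 0.00136. All 20 basement membrane genes had positive values in *Sox2* mutants, with the laminin receptor gene *Itga6* (0.70 ± 0.12, FDR = 0.00357) and the fibronectin gene *Fn1* (0.63 ± 0.12, FDR = 0.00623) upregulated, and 19 of 20 in *Nr2f1* mutants with 0 passing. Medians of the log2 fold changes in these 9 lists of vessel genes were between 0.26 and 0.56 in *Sox2* and between 0.14 and 0.54 in *Nr2f1* mutants.

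These further calls differed in how they held when a setting was changed. Of the named genes of the 9 lists, *Nrp1*, *Lef1*, *Pdgfa*, *Nr2f2*, *Ednrb*, *Itga7* and *Rgs4* passed in the *Sox2* line in all 13 alternatives, as *Nrp1* and *Angpt2* did in all 12 of the *Nr2f1* line. *Nrp2* passed in 12 of 13, except in one fit over both lines, *Sox4* in 12, except without MUT_4, and *Vwf* in 11, except in the fit over both lines and without CTRL_1. *Angpt1*, *Wnt7a* and *Itga6* passed in 10 of 13 and were lost without CTRL_1, CTRL_2 or MUT_4. *Wnt7b*, *Itgb8*, *S1pr1*, *Hey1* and *Slco2b1* passed in 9 and were lost without those libraries or MUT_3. The same losses were seen for *Notch1*, which passed in 8, and for *Fn1* and *Ly6e*, which passed in 7, each with others added. Of the *Nr2f1* line, *Nkd1* passed in 11 of 12, except in the fit over both lines. *Lef1*, *Jam2* and *Zic1* passed in 7 and were lost without CTRL_B, CTRL_D, CTRL_E or MUT_A, and also without MUT_C for *Lef1* and *Jam2* and in the fit over both lines for *Zic1*.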

How the data were processed

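The members and gene lists were chosen with earlier results of these data known. The values are expected counts per gene, which the authors made with STAR and RSEM on the RefSeq mouse transcriptome and deposited in 1 table per line. The submitters' processing notes name mm10, and versions of these tools are not given in the sources used here. Of these values 7.77% were not whole, and all were rounded. Genes passing filterByExpr (minimum count 10, minimum total count 15) were normalized by TMM. Tests were quasi-likelihood F-tests in edgeR 4.0.16 (R 4.3.3), mutants against own controls, FDR<0.01. The step was run on simulated counts with known changes. Those changes were larger than the ones of most vessel genes, and no simulated pool stood apart from its group. The run therefore does not measure how well vessel genes are called here. Alternatives were no filter, a minimum of 10 counts per library throughout, upper quartile scaling, DESeq2 1.42.0, likelihood ratio tests, one fit over 12 libraries, FDR<0.05, a replicate block, and leaving out each library. After seeing the data, the test of the difference was also run without both CTRL_3 and MUT_B. Pools of a group differed beyond sampling noise (chi-square per degree of freedom 10.8 to 39.6), and none was counted as a repeat. No exact permutation test of 3 pools against 3 can give a two-sided p below 0.1. Named genes are all 31 members, up to 6 called genes of each of 18 other lists, the most abundant gene and genes at 0 of marker lists, and the targeted genes with *Rora*. Of 376 listed genes 371 were found, and *Cavin1*, *Cavin2*, *Gucy1a1*, *Gucy1b1* and *Ahsp* were not. Transcript lengths are from GENCODE. One gene of the microglia list is counted with its list and not reported here.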

Additional observations from a re-analysis of the deposited data

Results flagged for a closer look

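The genes given here differed between the lines in their log2 fold change by the interaction test of edgeR, *Sox2* minus *Nr2f1*, and none of the 31 vessel genes did. From the other lists of vessel genes these were *Angpt2* (-1.59, FDR = 0.00142) and *Rgs4* (0.83, FDR = 0.00136). *Angpt2* was upregulated in *Nr2f1* mutants, whereas its log2 fold change of -0.53 in *Sox2* mutants did not pass the test. *Rgs4* was upregulated in *Sox2* mutants. Both passed in all 18 alternative fits of the interaction. Of the other genes given here, *P2ry12*, *Prox1* and *Rora* passed in all 18, *Calb2* in 17 and *Trem2* in 16. *Cx3cr1* and *Nr2f1* passed in 9 of the 18, and *Slc17a6*, *Elavl4* and *Sox2* in 8.

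From the marker lists of other cells, the microglial genes *P2ry12* (1.48, FDR = 0.000419), *Trem2* (1.32, FDR = 0.00264) and *Cx3cr1* (0.69, FDR = 0.00402) had higher values in the *Sox2* line. Of neuronal genes, *Calb2* (0.93, FDR = 0.00207) had a higher value, and *Prox1* (-1.93, FDR = 9.85e-05), *Slc17a6* (-0.91, FDR = 0.00467) and *Elavl4* (-0.52, FDR = 0.00851) lower ones. The genes that check the labels also differed, with *Rora* (-1.70, FDR = 0.000118), *Sox2* (-0.84, FDR = 0.00603) and *Nr2f1* (1.19, FDR = 0.00742).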

How the results depend on the processing

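In the *Sox2* line, where edgeR called 0 of 31 vessel genes, DESeq2, the likelihood ratio test and FDR<0.05 each called 1 (8.24%, 8.32% and 10.4% of all genes higher), and leaving out 1 library gave 0 to 17, with 17 without CTRL_3 (6.86% of all genes higher) and 0 without each other library (1.14% to 2.90%). In the *Nr2f1* line, where 1 was called, the count was 2 without a filter (1.43% of all genes higher), 7 with DESeq2 (3.43%), 8 with the likelihood ratio test (3.77%), 6 at FDR<0.05 (3.65%) and 0 in one fit over the 12 libraries (1.31%). There, leaving out 1 library gave 0 to 11, with 11 without MUT_B (3.28%) and 0 without each other library (0.456% to 0.735%). The cause was not tested. The interaction gave 0 of 31 in every alternative, also without both CTRL_3 and MUT_B, where 3 of 31 had an unadjusted p below 0.05 by edgeR. The share of all genes below that p in that fit is not given here, and with all 12 libraries it was 16.2%. Of 403 alternative values of the 31 log2 fold changes in the *Sox2* line 369 kept sign and side of the threshold, 27 passed it and 7 changed sign, and of 372 in the *Nr2f1* line 337, 24 and 5, while 6, all of *Sox18*, no longer passed. Sign changes were those of *Notch3* with DESeq2 in the *Nr2f1* line (-0.0055) and, with libraries left out, of *Mfsd2a* (-0.10 to 0.25) and *Emcn* (-0.0018 to 0.44) in the *Sox2* line and *Notch3* (-0.032 to 0.070) and *Abcc9* (-0.012 to 0.12) in the *Nr2f1* line.

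With the number in the column name as a replicate block, possible in the *Sox2* line only, where numbers 1 and 3 are shared, 8 of 31 were called (5.53% of all genes higher), and *Mfsd2a* (-0.093) and *Foxf2* (-0.0048) changed sign. That fit leaves 1 residual degree of freedom, and its genotype effect rests on CTRL_1, MUT_1, CTRL_3 and MUT_3. Deviations from group means over all genes correlated at 0.227 and 0.223 in the 2 pairs of this line with the same number and at 0.263 in the pair of the *Nr2f1* line with the letter B. CTRL_2 and MUT_1, with different numbers, correlated at 0.268. By the methods of the study controls were littermates of mutants, but which pools share litters, and what a number or letter stands for, is not given in the sources used here, so whether the block fits the design was not settled. No paired analysis was possible in the *Nr2f1* line because its groups share only the letter B. *Slco1a4*, under 1 CPM in every *Nr2f1* control, rests on 24 to 48 counts per library there.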

Other observations

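Genes of hypoxia and glycolysis, which respond when blood supply falls short, had median log2 fold changes of 0.050 in *Sox2* and -0.088 in *Nr2f1* mutants over 19 genes tested. The hexokinase gene *Hk2* was upregulated in *Sox2* mutants (0.80 ± 0.16, FDR = 0.00892), where 3.90% of all genes were, and 0 of 19 passed in *Nr2f1* mutants, where 1.22% of all genes were upregulated. The most abundant of them was *Aldoa*, and *Car9*, a marker of hypoxia, had at most 9 counts in any library. *Vegfa*, the ligand of the receptors encoded by *Kdr* and *Flt1*, had 67.8, 72.05 and 76.9 CPM in *Sox2* controls and 67.9, 55.02 and 83.5 CPM in mutants (-0.070 ± 0.13, FDR = 0.742), and -0.070 ± 0.074, FDR = 0.611 in *Nr2f1* mutants. *Vegfa* and *Car9* were named after their values were seen. The call of *Hk2* held in 7 of 13 alternatives.

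Other cell types of the dissected tissue moved as follows. Of all genes tested 3.90% were upregulated and 4.19% downregulated in *Sox2* mutants, and 1.22% and 1.32% in *Nr2f1* mutants. Of 14 genes of astrocytes and radial glia, whose end-feet cover vessels, 8 were upregulated in *Sox2* mutants, among them *Gfap* (1.28 ± 0.11, FDR = 0.000108), *Aqp4* (0.77 ± 0.076, FDR = 0.000209) and *Gja1* (0.77 ± 0.10, FDR = 0.00106), and 1 in *Nr2f1* mutants, *Aqp4* (0.38 ± 0.066, FDR = 0.0085), the water channel of end-feet. *Fabp7* was the most abundant of these genes. Of 10 choroid plexus genes *Prlr* (1.15 ± 0.20, FDR = 0.00424) and *Otx2* (0.48 ± 0.10, FDR = 0.00856) were upregulated in *Sox2* mutants and 0 in *Nr2f1* mutants. *Ttr* was the most abundant by CPM over the libraries together, but not in each library, with 3.38 CPM in CTRL_3. The list summed to 148, 71.9 and 37.2 CPM in *Sox2* controls and 186, 57.01 and 147 CPM in mutants. In the *Nr2f1* line it summed to 55.5, 52.4 and 82.98 and 79.8, 75.8 and 106 CPM. The lowest values among *Sox2* controls and *Nr2f1* mutants were in CTRL_3 and MUT_B. Without *Ttr* the *Sox2* controls had 36.2, 35.1 and 33.8 CPM and the *Nr2f1* mutants 34.2, 30.9 and 37.1 CPM. Of 12 genes of thalamic glutamatergic neurons *Calb2* and *Gbx2* were upregulated in *Sox2* mutants, and *Rora*, *Slc17a6*, *Ntng1*, *Prox1* and *Lhx9* were downregulated. *Prox1*, *Lhx2* and *Cacna1g* passed in *Nr2f1* mutants with higher values, and *Tcf7l2* was the most abundant. Genes of neurons of any kind had medians of -0.14 and -0.11 over 11 genes, with *Syt1* and *Elavl4* downregulated in *Sox2* mutants and 0 passing in *Nr2f1* mutants, and *Tubb3* the most abundant. Their sums were 9534, 9731 and 8291 CPM in *Sox2* controls and 8709, 8188 and 8211 CPM in mutants, with the lowest control in CTRL_3, and 9906, 9640 and 9909 and 8948, 9408 and 8572 CPM in the *Nr2f1* line, with the highest mutant in MUT_B.

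Of these calls in *Sox2* mutants, *Lhx9* held in 6 of 13 alternatives, *Otx2* in 8, *Elavl4* and *Fabp7* in 9 and *Prlr* in 10, and the other called genes named held in all 13. In *Nr2f1* mutants *Aqp4* held in 7 of 12, *Lhx2* and *Cacna1g* in 8 and *Prox1* in 10.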
